A study of Homo sapiens with 24 samples.

Results

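GDF15 and 9 other genes of TGF-β superfamily signalling were followed in head and neck cancer cells treated with resveratrol, EGCG or both. The 10 genes were taken by symbol from the 60617 genes of the count table. They are 7 secreted ligands (GDF15, INHBE, INHBA, TGFB1, TGFB2, BMP2 and BMP4), the extracellular antagonist FST, and the inhibitory SMADs SMAD6 and SMAD7. GDF15 was chosen from its measured levels in these libraries, and the list around it was drawn up with the resveratrol and combination results known. Differences that bring in resveratrol are therefore given for the 10 genes as a description, with no p-value, and for GDF15 no p-value is given at all.

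The cells were MDA686TU, an established human head and neck cancer line, so every group is a single line grown on plastic. Cells of 4 conditions were sequenced after 24 h, with 6 replicates each. NT cells received no compound, EGCG cells received 40 μM epigallocatechin gallate (the main green tea catechin), Resveratrol cells received 15 μM resveratrol (a stilbene polyphenol of grapes), and Combination cells received 40 μM EGCG plus 15 μM resveratrol. Resveratrol came from a DMSO stock and EGCG was dissolved in water; whether NT cells received DMSO is not given in the sources used here. Nothing states that the replicates were separate cultures, so p-values measure the spread between these samples, which may be technical.

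TGF-β superfamily ligands are secreted as dimers that bind pairs of serine/threonine kinase receptors. TGF-βs and activins act mainly through SMAD2 and SMAD3, BMPs through SMAD1, SMAD5 and SMAD9, and in each branch SMAD4 joins the activated SMADs in the nucleus. Follistatin (FST) traps activins and some BMPs outside the cell, while SMAD6 and SMAD7 block the pathway inside it and are themselves switched on by it as feedback. GDF15 is a distant member of the family that does not use the SMAD receptors in its best known role: it signals to the brainstem through GFRAL and RET, and its gene is switched on by cell stress in many tissues.

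The libraries held between 7034872 and 11735574 counts each, and 15476 genes passed the filter on low counts, among them all 10 members. The label of the cells was met by their markers: each of 8 squamous epithelial genes was detected in 24 of 24 samples, with KRT5 at 952 to 1369 FPKM and TP63 at 50.4 to 59.1 FPKM. The summed FPKM of those 8 genes was 5418 to 5763 in NT, 5186 to 5873 in EGCG, 4425 to 4700 in Resveratrol and 4322 to 4716 in Combination; its part in the results was not tested. The summed FPKM of 5 fibroblast genes stayed at or below 0.712, that of 3 leukocyte genes at or below 0.511 and that of 3 endothelial genes at or below 0.236. In every group, replicates 1 to 3 and replicates 4 to 6 differed in the share of counts from mitochondrial genes, at 0.249% to 0.326% and 0.448% to 0.775%. The labels name no batch, so values within each set of 3 are given where they bear on a result.

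Normalized counts below are the authors' values, in which each library's counts are divided by its own scaling factor; they compare samples for one gene. FPKM (fragments per kilobase of gene length and per amount sequenced) also divides by gene length and was used only to compare genes. In NT cells the order of mean FPKM was FST at 142 ± 5.98 (SD, n = 6), TGFB1 at 22.8 ± 0.903, INHBA at 11.6 ± 0.476, TGFB2 at 7.77 ± 0.518, INHBE at 5.96 ± 0.484, SMAD7 at 3.73 ± 0.401, BMP2 at 2.63 ± 0.217, GDF15 at 1.60 ± 0.363, BMP4 at 0.446 ± 0.152 and SMAD6 at 0.326 ± 0.111. The 6 samples of each gene lay wholly above those of the next gene, except for BMP4 and SMAD6, whose ranges overlapped. The antagonist was thus by far the most abundant of these transcripts, and GDF15 stood at place 8 of 10. In Resveratrol cells GDF15 stood at place 5 with 7.63 ± 0.363 FPKM and INHBE at place 3 with 16.2 ± 0.841 FPKM. In Combination cells both held the same places, with 9.96 ± 1.03 and 17.5 ± 0.796 FPKM.

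**Figure D1:**
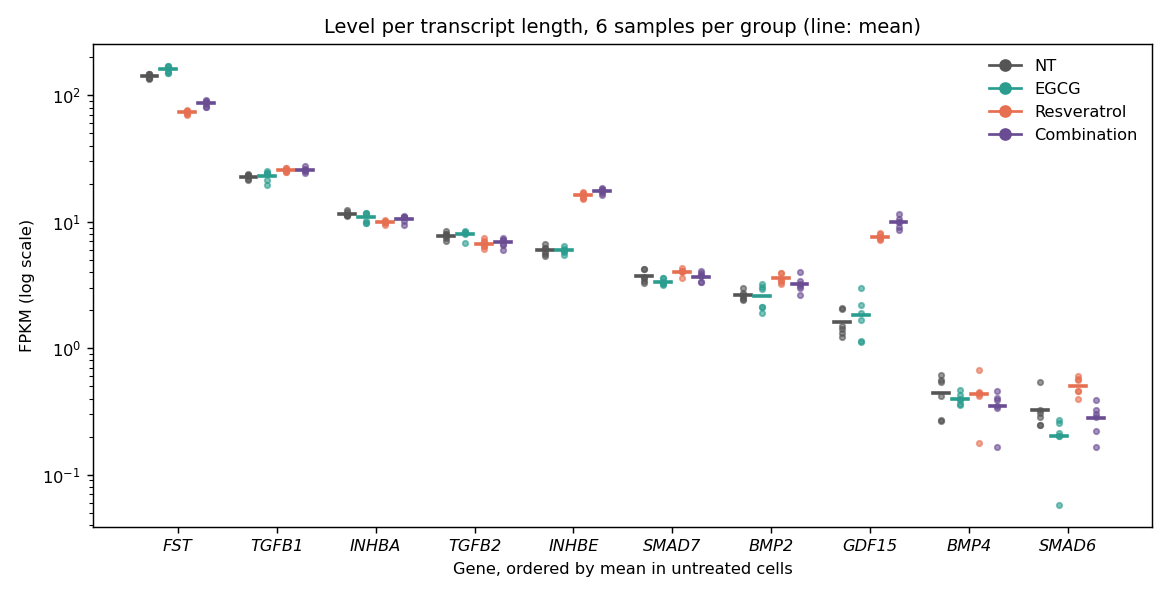
FPKM on a log axis for the 10 genes, ordered by their mean in NT cells. Points are the 6 samples of each group and short lines are group means. FST is the most abundant in all 4 groups, and GDF15 and INHBE are the genes whose place in the order is higher in Resveratrol and Combination than in NT and EGCG.

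A gene was called different when edgeR's quasi-likelihood test gave a Benjamini-Hochberg adjusted p under 0.1 over all 15476 genes and a p under 0.05. For Resveratrol against NT, 5 of the 10 genes were called higher and 3 lower, where 28.9% and 28.0% of all genes were called. For Combination against NT, 4 were called higher and 3 lower, with 29.9% of all genes called in each direction. For Combination against EGCG, 4 were called higher and 2 lower, with 28.7% and 29.1% of all genes called. These counts describe genes picked with those contrasts in view, and nothing is read from them. The median log2 fold change of the 10 genes was 0.15 for Resveratrol against NT, -0.07 for Combination against NT and 0.15 for Combination against EGCG, where the medians of all genes were 0.0037, -0.0015 and -0.0015.

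EGCG was added in 2 settings, to untreated cells and to resveratrol-treated cells, and these 2 comparisons share no library. For EGCG against NT, 1 of the 10 genes (FST) was called higher and 0 lower, where 0.905% and 0.859% of all genes were called. At an unadjusted p under 0.05 edgeR gave 1 higher and 2 lower (SMAD6 and SMAD7), and DESeq2 called 1 higher and 0 lower. For Combination against Resveratrol, GDF15 being left out as chosen on its levels, 1 of the other 9 genes was called higher (FST) and 1 lower (SMAD6), where 4.01% and 3.86% of all genes were called. The difference between these 2 EGCG effects, tested as an interaction, was called for 0 of the 10 genes in either direction by edgeR and by DESeq2, where 0.207% of all genes were called higher and 0.0582% lower by edgeR. At an unadjusted p under 0.05 edgeR gave 1 gene, INHBA. Over all genes tested, 1570, 2811 and 1195 passed that unadjusted limit in either direction for EGCG against NT, Combination against Resveratrol and the interaction. The list was drawn up with the Resveratrol and Combination results known. For the 10 genes, calls and adjusted p-values of Combination against Resveratrol and of the interaction are therefore a description. The median log2 fold change of the 10 genes was -0.03 for EGCG against NT, 0.02 for Combination against Resveratrol and 0.01 for the interaction, and the medians of all genes were 0.0009, -0.0011 and -0.0047.

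**Figure D2:**
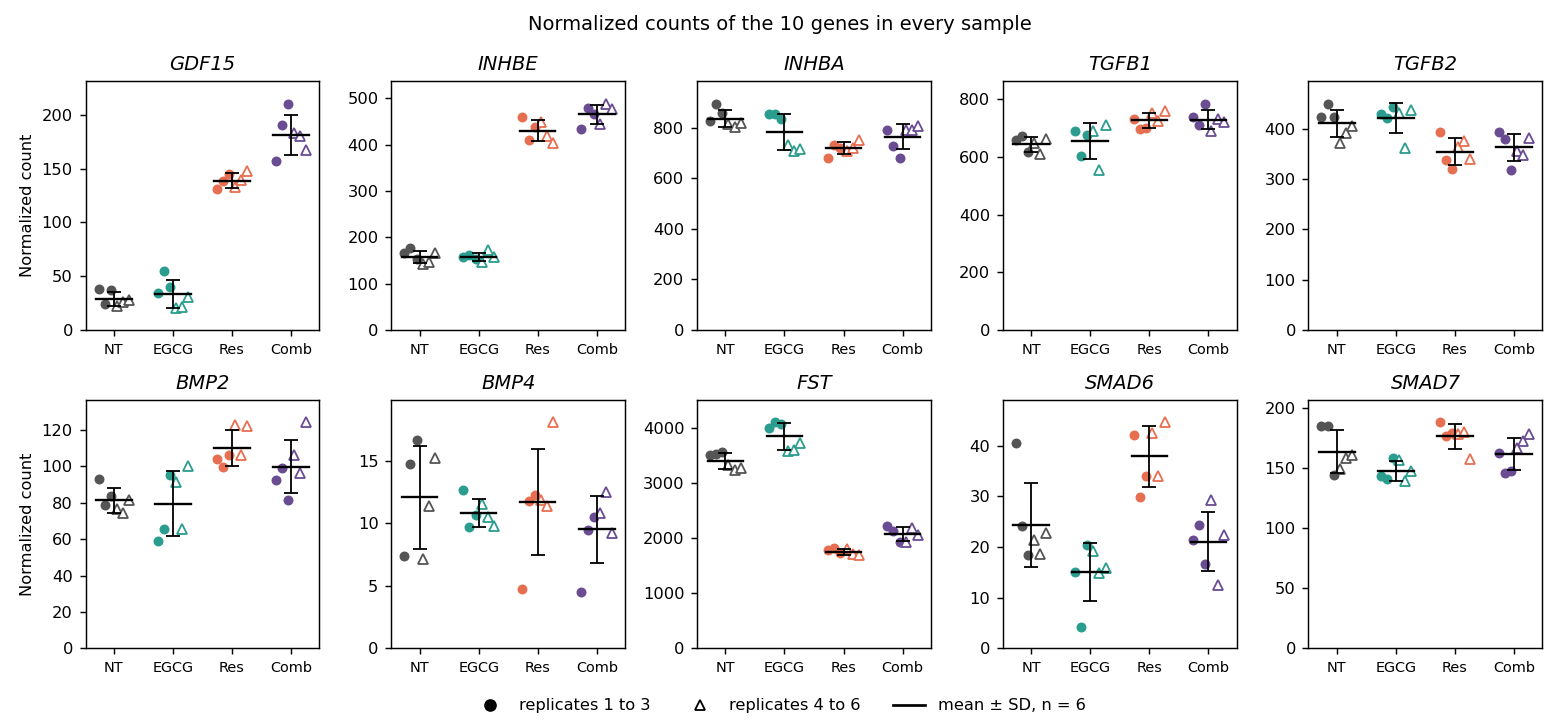
Normalized counts of the 10 genes in each of the 24 samples, on linear axes from 0. Filled circles are replicates 1 to 3, open triangles are replicates 4 to 6, and bars give the mean ± SD of 6 samples. GDF15 and INHBE sit far higher in Resveratrol (Res) and Combination (Comb) than in NT and EGCG, and FST sits lower in them. SMAD6 has its highest mean in Resveratrol, where its samples overlap those of NT.

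GDF15 (ENSG00000130513) lies on the plus strand of chr19:18374731-18389176 (GRCh38, GENCODE v44). The 250 bases before its RefSeq start site, at chr19:18385908-18386157 (plus strand, GRCh38.p14), are shown because the list was drawn up around GDF15. Capitals mark matches to the motifs searched.
GDF15: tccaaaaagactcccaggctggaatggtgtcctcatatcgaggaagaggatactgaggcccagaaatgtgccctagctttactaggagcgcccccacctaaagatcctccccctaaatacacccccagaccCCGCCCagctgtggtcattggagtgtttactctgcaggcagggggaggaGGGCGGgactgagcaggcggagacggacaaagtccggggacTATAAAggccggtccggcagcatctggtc
A set of 8 short motifs was searched on both strands of each 300-base RefSeq promoter (250 bases before to 50 after the start). These were the C/EBP-ATF composite site TGATGNAA (held by 3.62% of 35116 promoters), the cAMP response element TGACGTCA (1.85%), the AP-1 site TGANTCA (7.71%), the GC box GGGCGG (45.0%), the SMAD palindrome GTCTAGAC (0.202%), the BMP-type GC element GGCGCC (19.2%), the EGR1 site GCGNGGGCG (9.43%, which can overlap a GC box) and the TATA box TATAAA (11.5%). In the GDF15 window the letters of a GC box stood at -118 to -113 and at -69 to -64, and those of a TATA box at -28 to -23. None of the other 6 motifs matched there, which says only that those letters are not in this window. RefSeq promoters were found for 8 of the 10 genes; INHBE and BMP2 had no entry.

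GDF15 was at 37.8, 24.2, 36.9, 22.4, 25.8 and 27.5 normalized counts in the 6 NT samples. In EGCG samples it was at 34.5, 54.9, 39.8, 20.6, 21.0 and 30.6. Resveratrol samples held 131, 138, 145, 133, 139 and 148, and Combination samples 157, 191, 210, 183, 180 and 167. NT and EGCG samples overlapped, every Resveratrol sample lay above both groups, and every Combination sample lay above every Resveratrol sample. The log2 fold change from NT was 2.24 ± 0.14 (SE) with resveratrol, a 4.73-fold difference, and 2.63 ± 0.13 with the combination, a 6.19-fold difference. With EGCG alone it was 0.18 ± 0.18 (95% confidence interval -0.19 to 0.55), and from Resveratrol to Combination it was 0.39 ± 0.097 (0.19 to 0.59). The interaction was 0.21 ± 0.21 (-0.21 to 0.63). Since GDF15 was chosen on its levels, these intervals are a description and are not read as tests. The relative spread was wide where the gene was low, with a coefficient of variation of 22.7% in NT and 38.5% in EGCG. In EGCG cells replicates 1 to 3 averaged 43.1 and replicates 4 to 6 averaged 24.0, and the fold change from NT in those sets was 0.35 ± 0.21 and -0.10 ± 0.23.

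INHBE encodes the βE subunit of activin, is known chiefly from liver, and like GDF15 is a known target of the integrated stress response. It lies on chr12:57452323-57459280 (plus strand). INHBE ran from 143 to 176 normalized counts in NT (median 159), from 147 to 172 in EGCG (median 157), from 404 to 459 in Resveratrol (median 428) and from 434 to 488 in Combination (median 471). As for GDF15, the groups without resveratrol overlapped and both groups with it lay wholly above them. Resveratrol and Combination samples overlapped. The log2 fold change was 1.44 ± 0.054 (SE) for Resveratrol against NT and 1.56 ± 0.054 for Combination against NT, or 2.72-fold and 2.94-fold. EGCG against NT gave 0.01 ± 0.063 (adjusted p = 0.989), and Combination against Resveratrol gave 0.11 ± 0.046 (0.02 to 0.21, adjusted p = 0.172), which did not pass. Over the 24 samples the log2 CPM of GDF15 and INHBE had a Pearson correlation of 0.966, as a description of samples that share their groups.

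INHBA encodes the βA subunit of activin A, a ligand of the TGF-β branch, on chr7:41667168-41705834 (minus strand). Its 6 NT samples ran from 803 to 895 normalized counts and its 6 Resveratrol samples from 681 to 752, with no overlap, a log2 fold change of -0.21 ± 0.047. When libraries were scaled by their totals alone, the value was -0.13 ± 0.047. EGCG samples differed between the sets: replicates 1 to 3 were at 852, 853 and 836 and replicates 4 to 6 at 733, 709 and 714. NT replicates 1 to 3 were at 826, 895 and 858 and NT replicates 4 to 6 at 815, 803 and 818. EGCG against NT was thus -0.02 ± 0.056 in the first set and -0.18 ± 0.048 in the second, and -0.09 ± 0.047 (adjusted p = 0.509) over all samples. The interaction was 0.18 ± 0.067 (0.04 to 0.31, adjusted p = 0.464) over all samples; in replicates 4 to 6 alone it was 0.31 ± 0.069 and passed the limits (adjusted p = 0.0519), and in replicates 1 to 3 alone it was 0.05 ± 0.081. Combination against NT was -0.23 ± 0.057 in the first set and -0.03 ± 0.048 in the second (-0.13 ± 0.047 over all samples, and -0.04 when scaled by library totals). Combination against EGCG was -0.21 ± 0.057 in the first set and 0.15 ± 0.049 in the second, opposite in sign, and -0.04 ± 0.048 over all samples. Activin A and activin E subunits differed in direction from NT to Resveratrol, INHBE being higher and INHBA lower.

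TGFB1 and TGFB2 encode 2 of the 3 TGF-β isoforms, cytokines held latent in the matrix. TGFB1 (chr19:41301587-41353922, minus strand) ran from 610 to 672 normalized counts in NT, from 555 to 713 in EGCG, from 696 to 760 in Resveratrol and from 690 to 785 in Combination. Resveratrol and Combination samples lay above all NT samples but overlapped EGCG samples, with log2 fold changes from NT of 0.18 ± 0.047 and 0.18 ± 0.047. With scaling by library total alone the Resveratrol value was 0.26 ± 0.046. TGFB1 overlaps HNRNPUL1 on the opposite strand, a gene at a mean of 2675 normalized counts; the libraries were stranded, but the strand setting of the counting is not given in the sources used here. TGFB2 (chr1:218345336-218444619, plus strand) went the other way, from 371 to 449 in NT to 320 to 393 in Resveratrol and 318 to 393 in Combination. Its log2 fold changes from NT were -0.21 ± 0.057 and -0.18 ± 0.058, and the groups overlapped. With scaling by library total alone they were -0.12 ± 0.057 and -0.10 ± 0.057, and the Combination value was no longer called. In replicates 4 to 6 they were -0.12 ± 0.072 and -0.11 ± 0.073, and neither was called. In replicates 1 to 3 they were -0.30 ± 0.080 and -0.25 ± 0.081, and both were called. EGCG against NT gave 0.02 ± 0.048 (adjusted p = 0.946) for TGFB1 and 0.03 ± 0.056 (adjusted p = 0.927) for TGFB2, and Combination against Resveratrol gave 0.01 ± 0.047 (adjusted p = 0.969) and 0.03 ± 0.059 (adjusted p = 0.846). These intervals reached no further than -0.09 to 0.15, so a change of either isoform by EGCG beyond that size is outside them.

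BMP2 and BMP4 encode bone morphogenetic proteins of the SMAD1/5 branch. BMP2 (chr20:6767686-6780246, plus strand) was between 74.2 and 93.1 normalized counts in NT, 58.9 and 100 in EGCG, 99.7 and 123 in Resveratrol, and 81.5 and 124 in Combination. Resveratrol samples lay above all NT samples, with a log2 fold change of 0.43 ± 0.11, while Combination samples overlapped NT samples at 0.29 ± 0.11. Both were smaller in replicates 1 to 3, at 0.28 ± 0.14 and 0.09 ± 0.14, than in replicates 4 to 6, at 0.59 ± 0.14 and 0.49 ± 0.14. Combination against Resveratrol gave -0.14 ± 0.10 (adjusted p = 0.529) and EGCG against NT -0.07 ± 0.12 (adjusted p = 0.918). BMP4 (chr14:53949736-53958761, minus strand) was near the limit of these libraries, with 4 to 18 raw counts per sample, and no comparison called it. In each of the 5 comparisons of 2 groups its 95% interval held 0. The lowest end was -0.85 (Combination against NT) and the highest was 0.43 (Resveratrol against NT). Changes that lie inside the interval of a comparison are not excluded for it.

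FST (chr5:53480626-53487134, plus strand) encodes follistatin. It was the only one of the 10 genes called for EGCG in both settings, and there it was higher, whereas it was lower with resveratrol. Its upstream 250 bases, at chr5:53480379-53480628 (plus strand, GRCh38.p14), are shown for that reason, with motif matches in capitals.
FST: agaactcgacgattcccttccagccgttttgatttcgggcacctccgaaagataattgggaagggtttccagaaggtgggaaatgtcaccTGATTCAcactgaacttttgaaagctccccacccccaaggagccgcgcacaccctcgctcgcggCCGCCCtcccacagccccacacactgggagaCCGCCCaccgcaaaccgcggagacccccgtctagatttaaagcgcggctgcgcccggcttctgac
An AP-1 match stood at -159 to -153 and GC box matches at -95 to -90 and -64 to -59, and beyond the stretch shown a GC box at 17 to 22 overlapped an EGR1 match at 13 to 21.

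FST was at 3516, 3520, 3564, 3324, 3239 and 3270 normalized counts in NT samples and at 3999, 4106, 4077, 3588, 3597 and 3723 in EGCG samples. It was at 1792, 1826, 1727, 1800, 1714 and 1693 in Resveratrol samples and at 2220, 2128, 1939, 1930, 2177 and 2055 in Combination samples. The 4 groups did not overlap anywhere: Resveratrol was lowest, then Combination, then NT, then EGCG. EGCG against NT was a rise of 0.18 ± 0.037 on the log2 scale (0.10 to 0.25, adjusted p = 0.00602), with 6 of 6 EGCG samples above every NT sample. Combination against Resveratrol was a rise of 0.24 ± 0.039 (0.16 to 0.31, adjusted p = 0.0001), again with 6 of 6 samples above. The interaction of 0.06 ± 0.054 (-0.05 to 0.17, adjusted p = 0.876) did not pass. In replicates 4 to 6 alone the EGCG rise was 0.15 ± 0.040 and missed the limit (adjusted p = 0.103); in replicates 1 to 3 alone it was 0.21 ± 0.043 and passed. Resveratrol against NT gave -0.95 ± 0.038 and Combination against NT -0.71 ± 0.038, as 1.93-fold and 1.64-fold lower levels.

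SMAD6 (chr15:66702236-66782849, plus strand) encodes the inhibitory SMAD that acts mainly on the BMP branch and is itself a BMP target. Its upstream 250 bases, at chr15:66701986-66702235 (plus strand, GRCh38.p14), are shown because of the SMAD-type letters next to the start site, with motif matches in capitals.
SMAD6: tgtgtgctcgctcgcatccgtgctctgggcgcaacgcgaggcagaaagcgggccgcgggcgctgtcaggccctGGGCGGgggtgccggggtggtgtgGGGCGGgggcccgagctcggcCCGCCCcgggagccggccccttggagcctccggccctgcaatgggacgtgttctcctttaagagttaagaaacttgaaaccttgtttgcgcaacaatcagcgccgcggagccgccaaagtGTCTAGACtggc
The palindrome GTCTAGAC stood at -11 to -4 and GC box matches at -176 to -171, -152 to -147 and -131 to -126. Of the RefSeq promoters of the other members, none held that palindrome; no binding was measured here.

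SMAD6 was a low gene, with 4 to 44 raw counts per sample. It was at 40.5, 24.2, 18.5, 21.4, 18.6 and 22.8 normalized counts in NT and at 15.1, 4.31, 20.4, 19.3, 15.0 and 15.9 in EGCG. It was at 42.0, 29.8, 34.0, 42.5, 34.1 and 44.6 in Resveratrol and at 21.4, 24.3, 16.7, 29.2, 12.5 and 22.4 in Combination. Every Combination sample lay below every Resveratrol sample, whereas 4 of 6 EGCG samples lay below every NT sample and the other 2 overlapped NT. Replicate 1 of NT and replicate 2 of EGCG stood apart from the rest of their groups. Combination against Resveratrol fell by 0.83 on the log2 scale (SE 0.20, interval -1.24 to -0.43, adjusted p = 0.00806, 6 of 6 samples below), a 1.78-fold lower level. EGCG against NT gave -0.70 ± 0.23 (-1.18 to -0.23, adjusted p = 0.171), which did not pass. That value was -0.49 without NT replicate 1 and -0.53 without EGCG replicate 2. The interaction was -0.13 ± 0.31 (-0.77 to 0.51, adjusted p = 0.964), too wide to tell the 2 EGCG effects apart or alike. In replicates 1 to 3 alone Combination against Resveratrol was -0.77 ± 0.29 and missed the limit (adjusted p = 0.164), and in replicates 4 to 6 alone it was -0.90 ± 0.23 and passed. Resveratrol against NT was 0.62 ± 0.19, with 3 of 6 Resveratrol samples above every NT sample and the rest overlapping NT. It was 0.34 ± 0.27 in replicates 1 to 3, where it was not called, and 0.94 ± 0.23 in replicates 4 to 6, where it was. Combination against NT was -0.22 ± 0.22, at -0.43 ± 0.31 and 0.04 ± 0.27 in those sets.

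SMAD7 (chr18:48919853-48950965, minus strand), the inhibitor of both branches, varied less. It ran from 144 to 185 normalized counts in NT, from 139 to 158 in EGCG, from 157 to 188 in Resveratrol and from 146 to 178 in Combination, and all groups overlapped. EGCG against NT gave -0.15 ± 0.071 (-0.30 to -0.01, adjusted p = 0.449) and Combination against Resveratrol -0.13 ± 0.069 (-0.27 to 0.01, adjusted p = 0.334). Neither passed. Resveratrol against NT was 0.11 ± 0.068, and 0.20 ± 0.068 with scaling by library total alone. Within replicates 1 to 3, Combination against NT was -0.17 ± 0.11, and within replicates 4 to 6 it was 0.14 ± 0.095.

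**Figure D3:**
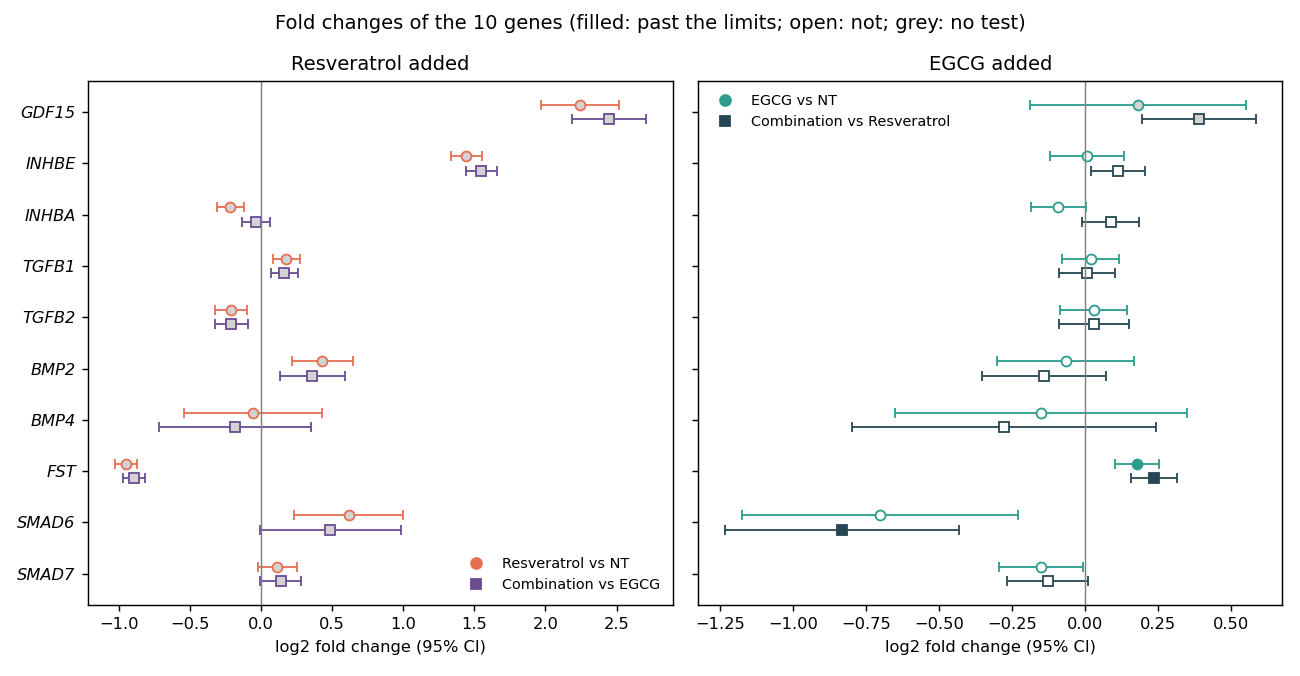
log2 fold changes of the 10 genes with 95% confidence intervals from edgeR, over 6 samples per group. The left panel shows resveratrol added to untreated cells (circles) and to EGCG-treated cells (squares), as a description; the right panel shows EGCG added to untreated cells (circles) and to resveratrol-treated cells (squares). In the right panel filled symbols passed the limits and open ones did not; grey symbols carry no test, and the panels have different horizontal scales. FST is filled on the right in both settings and SMAD6 in resveratrol-treated cells.

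A further 121 genes of the pathway, in 7 lists by role, were read with the same fit, and 81 of them passed the filter on low counts. The lists were chosen with earlier results of these data known. For all 7 lists, counts of called genes and adjusted p-values are therefore a description and are not read as tests. Of the 81, 31 rose and 15 fell with resveratrol, where 28.9% and 28.0% of all genes did. With the combination 31 rose and 17 fell, where 29.9% of all genes rose and 29.9% fell. With EGCG 1 rose and 6 fell, where 0.905% and 0.859% of all genes did, and from Resveratrol to Combination 9 rose and 5 fell, where 4.01% and 3.86% did. The ligand list was mostly silent in these cells, since 7 of 26 other ligands passed the filter. BMP6 rose with resveratrol by 1.08 ± 0.21 on the log2 scale (adjusted p = 3.2e-05) from 11.4 ± 5.34 normalized counts (SD, n = 6). BMP8B rose by 0.41 ± 0.13 (adjusted p = 0.0081) and GDF11 by 0.09 ± 0.035 (adjusted p = 0.027). INHBB, the βB subunit of activin, rose with the combination by 0.79 ± 0.24 (adjusted p = 0.0048), from 8.72 ± 3.12 to 15.4 ± 1.87 normalized counts. GFRAL, the GDF15 receptor, had 0 counts in every sample, which allows up to 3 counts in each library by counting error alone, and its co-receptor RET had at most 9.

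Of 21 receptors and co-receptors, 14 passed the filter, and with resveratrol 2 rose and 2 fell, where 28.9% and 28.0% of all genes did. The risers were BAMBI, a decoy receptor that damps signalling, at 0.55 ± 0.21 (adjusted p = 0.025), and the activin receptor ACVR1B at 0.20 ± 0.057 (adjusted p = 0.0041). TGFBR2, the TGF-β type II receptor, fell by 0.19 on the log2 scale (SE 0.036, adjusted p = 2.5e-05) and BMPR1B fell by 0.63 (SE 0.22, adjusted p = 0.016). With the combination 5 rose, BAMBI by 0.79 ± 0.21, and 3 fell, where 29.9% of all genes moved in each direction. With EGCG alone none of the 14 was called in either direction, where 0.905% of all genes were called higher and 0.859% lower. At an unadjusted p under 0.05 edgeR gave 1 higher and 0 lower, and DESeq2 called 0. Among the 16 signalling SMADs and regulators 3 rose and 3 fell with resveratrol, against 28.9% and 28.0% of all genes. SMAD2 fell by 0.38 (SE 0.070, adjusted p = 2.3e-05), as did the ubiquitin ligase SMURF2 by 0.27 (SE 0.038, adjusted p = 2.3e-07), while the co-repressor SKI rose by 0.25 ± 0.056 (adjusted p = 0.00028). SMAD9, a low gene at 9.55 ± 3.51 normalized counts in NT, rose by 0.63 ± 0.25 (adjusted p = 0.031). EGCG called none of these 16, against the same 0.905% and 0.859% of all genes, with 1 higher and 0 lower at an unadjusted p under 0.05 and 0 called by DESeq2.

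Of 22 extracellular antagonists, latency and processing genes, 11 passed the filter, and 4 rose and 3 fell with resveratrol, against 28.9% and 28.0% of all genes. FSTL3, the close relative of follistatin that also binds activins, fell by 0.28 (SE 0.052, adjusted p = 2.2e-05), and FSTL1 rose by 0.35 ± 0.043 (adjusted p = 1.4e-08). With EGCG alone FSTL3 was at -0.05 ± 0.051 (adjusted p = 0.81), where FST rose. LTBP1, which anchors latent TGF-β to the matrix, rose from Resveratrol to Combination by 0.40 ± 0.12 (adjusted p = 0.037), from 57.9 ± 9.17 to 77.1 ± 13.2 normalized counts. That call was lost without Combination replicate 5, where the value was 0.32, and it amounted to 0.11 among replicates 1 to 3 but 0.72 among replicates 4 to 6. No other gene of this list was called for EGCG in either setting. Of all genes, 0.905% were called higher and 0.859% lower for EGCG against NT, and 4.01% and 3.86% from Resveratrol to Combination. At an unadjusted p under 0.05 edgeR gave 0 for EGCG against NT and LTBP1 alone from Resveratrol to Combination, and DESeq2 called 0 and 1.

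Of the 10 BMP and SMAD1/5 target genes 8 were tested, and 3 of these fell with EGCG in both settings while 5 were called in neither. ID1, ID2 and ID3, which encode inhibitors of basic helix-loop-helix factors and are standard BMP readouts, were the 3 that fell with EGCG and the 3 that fell from Resveratrol to Combination, where 0.859% and 3.86% of all genes fell. None rose in either comparison, where 0.905% and 4.01% of all genes did, nor did any pass an unadjusted p under 0.05 upward, and DESeq2 called the same numbers. ID2 was at 64.9 to 79.6 normalized counts in NT and 36.9 to 55.0 in EGCG, a fall of 0.68 on the log2 scale (SE 0.11, adjusted p = 7e-05), and at 116 to 142 in Resveratrol and 76.7 to 99.9 in Combination, a fall of 0.54 (SE 0.082, adjusted p = 3.3e-05). ID3 was at 616 to 680 in NT, 435 to 522 in EGCG, 745 to 824 in Resveratrol and 639 to 727 in Combination, and fell by 0.44 (SE 0.046, adjusted p = 3.3e-08) and 0.23 (SE 0.044, adjusted p = 0.00077). ID1 fell by 0.29 (SE 0.038, adjusted p = 3.5e-06) with EGCG, from 816 to 905 in NT to 683 to 743, and by 0.15 (SE 0.037, adjusted p = 0.0093) from Resveratrol to Combination, where the ranges overlapped. In replicates 1 to 3 alone that last difference was -0.09 and did not pass. For ID2 and ID3 the groups did not overlap in either comparison.

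With resveratrol 5 of these 8 targets rose, 0 fell and 3 were not called, where 28.9% and 28.0% of all genes rose and fell; by edgeR 0 were lower at an unadjusted p under 0.05, and DESeq2 called 5 and 0. ID2 rose by 0.83 ± 0.085 (adjusted p = 2e-10), DLX5 by 0.59 ± 0.13 (adjusted p = 0.00027), MSX1 by 0.50 ± 0.21 (adjusted p = 0.039), ID3 by 0.28 ± 0.043 (adjusted p = 1.2e-06) and ID1 by 0.13 ± 0.037 (adjusted p = 0.0041). As the target list was chosen with earlier results known, the calls and adjusted p-values are a description. In Combination against NT, 2 of the 8 targets were called higher, 1 lower and 5 were not called, where 29.9% of all genes were called in each direction. DESeq2 called 1 higher and 1 lower. ID1 was at -0.03 ± 0.038 and ID3 at 0.05 ± 0.045 in that comparison, and neither passed. The interactions for ID1, ID2 and ID3 were 0.14 ± 0.053, 0.15 ± 0.13 and 0.21 ± 0.063 (adjusted p = 0.49, 0.87 and 0.26) and did not pass. SMAD6, also a BMP target, had its highest level in the same group, Resveratrol, as ID2.

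Of 19 TGF-β and SMAD3 target genes, 18 passed the filter. With resveratrol 9 rose and 7 fell, where 28.9% and 28.0% of all genes did. CDKN2B and CDKN1A, which encode the cell cycle inhibitors p15 and p21, rose by 1.12 ± 0.047 and 1.11 ± 0.042. THBS1, the matrix protein thrombospondin, fell by 0.74 (SE 0.031), and TGFBI, a secreted matrix protein, by 0.66 (SE 0.024). With EGCG 0 rose and 3 fell, against 0.905% and 0.859% of all genes. These were TGFBI, lower by 0.35 (SE 0.024, adjusted p = 2.8e-13), COL1A1 by 0.27 (SE 0.052, adjusted p = 0.0021) and PMEPA1, a SMAD feedback gene, by 0.22 (SE 0.034, adjusted p = 7.8e-05). At an unadjusted p under 0.05 edgeR gave 0 higher and 5 lower, and DESeq2 called 0 and 3. All 3 passed in replicates 1 to 3 and in replicates 4 to 6. From Resveratrol to Combination 5 rose and 2 fell, against 4.01% and 3.86% of all genes. The risers were led by CDKN1A at 0.25 ± 0.039, FN1 at 0.22 ± 0.039, ITGB6 at 0.20 ± 0.048 and COL1A1 at 0.19 ± 0.050, while TGFBI fell by 0.18 (SE 0.024) and PMEPA1 by 0.14 (SE 0.033). CDKN1A, FN1, TGFBI and PMEPA1 passed in both sets of 3 replicates. ITGB6 passed in neither replicates 1 to 3 nor 4 to 6 (edgeR adjusted p = 0.134 and 0.121), nor did the remaining riser, CDKN2B (0.246 and 0.254).

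For 3 of these targets the effect of EGCG differed between its 2 settings, with a positive interaction that passed the limits, and 0 passed in the other direction, where 0.207% and 0.0582% of all genes did. At an unadjusted p under 0.05 edgeR gave 7 and 0, where 1195 of all genes tested passed in either direction, and DESeq2 called 3 and 0. COL1A1 was at 1182 ± 92.5 normalized counts in NT, 981 ± 85.9 in EGCG, 1445 ± 90.8 in Resveratrol and 1650 ± 88.3 in Combination. It fell with EGCG alone and rose from Resveratrol to Combination, a rise that passed in replicates 1 to 3 and not in replicates 4 to 6. Its interaction was 0.46 ± 0.072 (adjusted p = 0.00079) and passed in each set of 3 replicates. COL1A1 is also a fibroblast collagen; the summed FPKM of the 5 fibroblast genes was 0.294 to 0.620 in NT, 0.353 to 0.683 in EGCG, 0.401 to 0.692 in Resveratrol and 0.484 to 0.712 in Combination, and its part in the result was not tested. FN1 had an interaction of 0.28 ± 0.055 (adjusted p = 0.0096) that passed in replicates 4 to 6 and not in replicates 1 to 3. TGFBI fell in both settings, by 0.35 and 0.18, and its interaction of 0.17 ± 0.033 (adjusted p = 0.0096) passed in replicates 1 to 3 and not in replicates 4 to 6, where it was 0.10.

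Among 7 transcription factors known to act at GDF15, 5 rose and 0 fell with resveratrol and likewise with the combination, where 28.9% and 28.0% of all genes rose and fell with resveratrol and 29.9% each way with the combination; none was lower at an unadjusted p under 0.05 by edgeR, and DESeq2 called 5 and 0 in each. ATF3, a stress-induced factor, was at 114 ± 4.67 normalized counts in NT, 121 ± 7.95 in EGCG, 296 ± 18.3 in Resveratrol and 394 ± 40.7 in Combination. It rose by 1.38 ± 0.068 with resveratrol and by a further 0.41 ± 0.057 (adjusted p = 6.4e-06) from Resveratrol to Combination, with every Combination sample (344 to 440) above every Resveratrol sample (263 to 315). DDIT3, which encodes CHOP, rose by 0.83 ± 0.064 and by a further 0.25 ± 0.058 (adjusted p = 0.006), its ranges overlapping in the second step. XBP1 rose by 0.42 ± 0.036 with resveratrol and by a further 0.13 from Resveratrol to Combination. That second rise was 0.20 in replicates 1 to 3, where it passed, and 0.06 in replicates 4 to 6, where it did not. From Resveratrol to Combination 3 of the 7 factors were thus called higher and 0 lower, where 4.01% and 3.86% of all genes were. The other risers with resveratrol were KLF4 at 0.32 ± 0.053 and ATF4, whose protein is set mostly by translation, at 0.08 ± 0.028. With EGCG alone 1 of the 7 was called, against 0.905% of all genes called higher and 0.859% lower. It was XBP1, which rose by 0.14 ± 0.036 (adjusted p = 0.042). That call was lost without NT replicate 3 and without each of EGCG replicates 1, 2 and 3, the value being 0.12 to 0.16 over all samples left out in turn, and in replicates 4 to 6 alone it was 0.08. NFE2L2 and EGR1 were called in none of these comparisons. As this list too was chosen with earlier results known, its counts and adjusted p-values are a description.

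**Figure D4:**
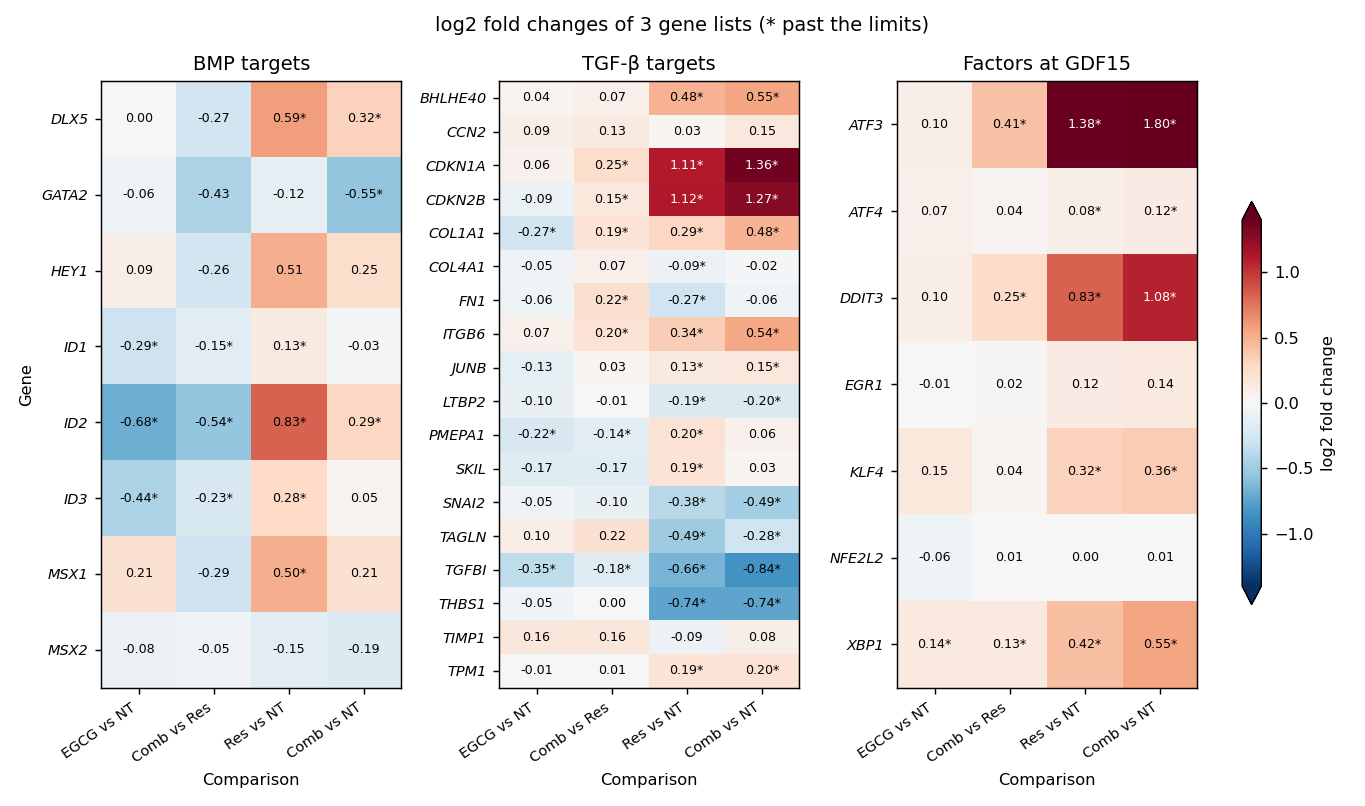
log2 fold changes (colour and printed value) of the tested BMP target genes, TGF-β target genes and transcription factors known at GDF15 in 4 comparisons, each of 6 samples against 6 others. An asterisk marks values past the limits, as a description of lists chosen with earlier results known, and colours saturate at 1.4. ID1, ID2 and ID3 are negative with an asterisk in both EGCG columns, and COL1A1 has an asterisk in both with opposite signs.

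The genes whose log2 CPM followed GDF15 most closely over the 24 samples were CDKN1A (Pearson r = 0.984), PCK2 (0.981), MMP14 (0.979), WARS1 (0.979) and EPHX1 (0.977). These are a cell cycle inhibitor, mitochondrial phosphoenolpyruvate carboxykinase, a membrane-type matrix metalloprotease, cytosolic tryptophanyl-tRNA synthetase and microsomal epoxide hydrolase. CDKN1A had means of 697, 727, 1498 and 1780 normalized counts in NT, EGCG, Resveratrol and Combination and stayed at place 1 when the difference between replicates 1 to 3 and 4 to 6 was removed. By rank correlation it stood at place 3 and EPHX1 at place 191. For INHBE the closest were GCLC (0.992), GABARAPL1 (0.992), CDKN2B (0.991), SQSTM1 (0.991) and APOL1 (0.990), which encode a glutathione synthesis subunit, an autophagy protein, p15, the autophagy receptor p62 and an apolipoprotein. By rank correlation these 5 stood between place 72 and place 491. The 2 sets of 5 had no gene in common. All 24 points share the same 4 groups and libraries.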

How the data were processed

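Poly(A) RNA of 24 samples (TruSeq stranded mRNA, paired-end) was trimmed with Trimmomatic 0.36 and aligned to GRCh38 with HISAT2 2.0.4 by the authors; the counting program, its annotation and its strand setting are not given in the sources used here. The authors deposited raw counts per gene, with 7034872 to 11735574 counts per sample. The deposited normalized counts are a scaled signal: they equal the raw counts divided by median-of-ratios size factors, checked within each library, and replicates were not pooled. The deposited FPKM values are these normalized counts divided by 1 fixed length per gene, so they carry the same scaling between samples; the depth behind every value is that of the raw counts.

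Genes were named from a GENCODE table by Ensembl ID (60261 of 60617 matched). The main test was edgeR (version 4.0.16, R 4.3.3) on all 24 samples (filterByExpr, TMM, glmQLFit and glmQLFTest, 1 coefficient per group, no covariates), with p-values two-sided and adjusted by Benjamini-Hochberg over the 15476 genes tested. The interaction is (Combination minus Resveratrol) minus (EGCG minus NT). DESeq2 1.42.0, other scalings and filters, a batch term, a replicate block, each set of 3 replicates and the omission of each sample were tried as alternatives. The scripts were tested on simulated data. No replicate pair of a group agreed within sampling noise (chi-square per degree of freedom from 1.23 to 6.05). The replicate numbers did not meet the limit for pairing, a correlation over 0.1 between every pair of same-numbered samples, and were not used as pairs. Missing that limit does not show that same-numbered samples were unrelated.

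The 10 genes and the 7 lists were chosen with earlier results of these data known; some genes of the lists are not reported here and are in none of the list counts. Text names all 10 genes, up to 4 called genes of each list with the largest change per comparison, genes that make up a count of 5 or fewer, and the 5 genes most correlated with GDF15 and with INHBE; exceptions are marked. Promoters come from RefSeq (GRCh38.p14) and gene positions from GENCODE v44 (GRCh38).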

Additional observations from a re-analysis of the deposited data

Results flagged for a closer look

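In 4 of 40 sets of 6 samples, 1 sample stood apart from the rest by its gap relative to the whole range (Dixon's criterion, which chance alone meets in about 1 of 20 sets). SMAD6 had 2 of them: NT replicate 1 at 40.5 normalized counts was the highest of its group, whose median was 22.1, and EGCG replicate 2 at 4.31 was the lowest of its group, whose median was 15.5. TGFB2 was lowest in EGCG replicate 5 at 361 normalized counts, against a median of 430 in that group. SMAD7 was lowest in Resveratrol replicate 6 at 157, against a median of 179.

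The effect of EGCG differed between untreated and resveratrol-treated cells, by the edgeR interaction test, for 3 TGF-β target genes. The interaction was 0.46 for COL1A1, 0.28 for FN1 and 0.17 for TGFBI on the log2 scale. Within these 3, the change with EGCG alone was called lower for COL1A1 and TGFBI and was -0.06 and not called for FN1, while from Resveratrol to Combination COL1A1 and FN1 rose and TGFBI fell. The list that holds these genes was chosen with earlier results known, so their calls are a description.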

How the results depend on the processing

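Of the counts of called genes, 187 values under other settings stayed within 1.5 times the reported count and 8 did not, and the 432 counts with 1 sample left out all stayed within it. In replicates 4 to 6 alone, 0 members were called higher for EGCG against NT, 1 was called lower for Combination against NT and 1 was called higher for the interaction. In replicates 1 to 3 alone, 3 were called higher for Resveratrol against NT and 0 lower for Combination against Resveratrol. With all genes of at least 1 count kept, 1 (SMAD6) was called lower for EGCG against NT. With libraries scaled by their totals alone, 1 was called lower for Combination against NT. With genes required to have 10 counts in every sample, 0 were called lower for Combination against Resveratrol, since SMAD6 was not tested. The cause of the others was not tested.

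Some values changed sign, among them INHBA in Combination against EGCG, whose sets of 3 replicates lay on opposite sides of 0. In replicates 4 to 6 alone, EGCG against NT was -0.10 for GDF15 and 0.091 for BMP2, Combination against Resveratrol was -0.062 for TGFB1 and 0.0062 for SMAD7, and the TGFB2 interaction was -0.041. In the same set, Resveratrol against NT was 0.27 for BMP4, Combination against NT was 0.037 for SMAD6 and 0.14 for SMAD7, and Combination against EGCG was 0.15 for INHBA and 0.027 for BMP4. In replicates 1 to 3 alone, EGCG against NT was -0.059 for INHBE, and the interaction was 0.044 for TGFB1, 0.033 for BMP2, 0.25 for SMAD6 and -0.051 for SMAD7. Scaling by library total gave 0.033 for BMP4 in Resveratrol against NT, 0.069 for SMAD7 in Combination against NT and 0.040 for INHBA in Combination against EGCG, and SMAD7 in Combination against NT was also above 0 with 10 counts in every sample and with the groups compared alone. The TGFB2 interaction was also -0.012 under scaling by library total and -0.0015 with at least 1 count. With 1 sample left out, EGCG against NT ranged from -0.024 to 0.037 for INHBE, from -0.0078 to 0.068 for TGFB1 and from -0.14 to 0.012 for BMP2, and Combination against Resveratrol ranged from -0.019 to 0.022 for TGFB1. The interaction ranged from -0.062 to 0.014 for TGFB1, from -0.045 to 0.040 for TGFB2, from -0.28 to 0.019 for BMP4 and from -0.016 to 0.060 for SMAD7. Resveratrol against NT ranged from -0.20 to 0.10 for BMP4, Combination against NT from -0.051 to 0.025 for SMAD7, and Combination against EGCG from -0.067 to 0.011 for INHBA.

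A replicate block left 1 member (FST) called higher for EGCG against NT and FST higher and SMAD6 lower for Combination against Resveratrol, and called 5 instead of 4 higher for Combination against EGCG. Over all genes the block called 370 instead of 273 for EGCG against NT and 85 instead of 41 for the interaction. Same-numbered samples had correlations of -0.01 to 0.13 in their deviations from the group means (median 0.049, against 0.028 for other samples of the same set of 3 and -0.041 across the sets), 2 of 36 pairs being over 0.1, and 14 of 24 samples were closest to a sample of their own number.

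At 4 to 44 raw counts per sample, BMP4 and SMAD6 were the members whose values depth limited most.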
